A study of Mus musculus with 5 samples.

Results

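The proteasome genes of mouse 2-cell embryos were taken as every row of the deposited expression table whose symbol starts with Psm, one of the letters a to g and a digit, without the rows marked as pseudogenes by "-ps". The rule gave 50 genes of 32285. They were 7 genes of the alpha ring and 7 of the beta ring of the core particle, 5 core subunits known mainly from immune cells, thymus or testis, 6 ATPases, 3 other subunits of the base and 8 subunits of the lid of the regulatory particle, 6 activators and regulators, and 7 assembly chaperones. The remaining match, Psmc3ip, encodes a meiotic recombination protein and is no proteasome subunit. The first 2 groups with the ATPases, base and lid make up 31 constitutive subunits.

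RNA-seq libraries were made from embryos of female mice aged 6 to 9 weeks and males aged 12 to 16 weeks, whose strain the labels do not give. After superovulation and in vitro fertilisation over some 6 h, eggs with pronuclei were kept in KSOM medium for 24 h, either with PNMC at 25 nM (3 libraries) or with an equal volume of its solvent DMSO (2 control libraries). The labels do not spell out PNMC, and they do not say how many embryos a library held or whether libraries came from separate cultures. All p-values rest on the variation among these 5 libraries alone, which can be technical in origin. Values are a normalised signal whose unit is not stated, so the read depth is unknown and no counting error can be given. The library sums ran from 446010 to 454548, and 17408 to 18595 genes were listed above 0, the most in control library 2. All 14 oocyte and 2-cell markers reached a value of 1 in 2 or more libraries (Dppa3 from 3053 to 3476), while markers of other cells were mixed. The leukocyte marker Ptprc did not exceed 0.0412 and the cumulus marker Ptx3 and the sperm marker Prm1 were listed at 0 in all 5 libraries, but the sperm marker Prm2 was at 3.91 to 5.79 and the antigen-presentation gene H2-Aa at 4.28 to 8.72. The highest means of the cumulus, sperm and immune lists were those of Nr5a2 (24.6), Odf2 (132) and Laptm5 (8.98). Most markers were far lower, with means under 1 in 13 of 18 cumulus, 10 of 13 sperm and 9 of 15 immune genes.

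The proteasome degrades proteins that carry chains of ubiquitin. Its barrel-shaped core is built of alpha rings, which form the gate, and beta rings, of which Psmb5, Psmb6 and Psmb7 hold the proteolytic sites. The regulatory particle recognises ubiquitin, removes it, and unfolds the substrate with its ring of ATPases. In oocytes and early embryos the proteasome is known to take part in clearing maternal proteins as control passes to the embryonic genome.

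The proteolytic subunits exist in a constitutive and an interferon-inducible form, and the levels of the forms lay far apart. The 250 bases before the annotated start are therefore printed for the constitutive Psmb6 and Psmb5 and for their inducible counterparts Psmb9 and Psmb8, from RefSeq promoters on GRCm38.p6. The windows lie at chr11:70525107-70525356 (+ strand) for Psmb6, chr17:34187331-34187580 (- strand) for Psmb9, chr14:54617996-54618245 (- strand) for Psmb5 and chr17:34197945-34198194 (+ strand) for Psmb8. Capitals mark matches, on either strand, to TGACNNNGC (core of the antioxidant response element, through which the proteasome gene regulator Nfe2l1 acts), to the NF-Y motif CCAAT, to the GC box GGGCGG or to the TATA box TATAAA. No 2 matches overlapped in these windows.
Psmb6: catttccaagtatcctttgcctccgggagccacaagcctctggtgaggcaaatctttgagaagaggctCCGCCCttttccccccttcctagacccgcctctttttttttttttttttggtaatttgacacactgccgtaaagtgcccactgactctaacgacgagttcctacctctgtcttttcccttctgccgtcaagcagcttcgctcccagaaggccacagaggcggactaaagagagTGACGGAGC
Psmb9: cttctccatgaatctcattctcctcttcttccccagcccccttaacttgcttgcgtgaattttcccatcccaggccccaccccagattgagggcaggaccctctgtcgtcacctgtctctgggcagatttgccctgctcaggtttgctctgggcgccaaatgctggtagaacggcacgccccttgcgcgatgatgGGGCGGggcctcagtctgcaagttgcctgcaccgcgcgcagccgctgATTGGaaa
Psmb5: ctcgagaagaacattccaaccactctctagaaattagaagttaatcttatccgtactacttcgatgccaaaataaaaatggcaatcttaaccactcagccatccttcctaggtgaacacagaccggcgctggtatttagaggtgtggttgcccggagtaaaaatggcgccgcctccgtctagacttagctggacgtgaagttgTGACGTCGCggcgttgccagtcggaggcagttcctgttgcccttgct
Psmb8: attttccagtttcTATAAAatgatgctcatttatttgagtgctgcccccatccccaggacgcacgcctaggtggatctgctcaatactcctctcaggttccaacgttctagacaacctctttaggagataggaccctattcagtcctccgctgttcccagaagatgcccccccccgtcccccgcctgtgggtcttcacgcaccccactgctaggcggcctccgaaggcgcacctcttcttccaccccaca

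The antioxidant response core stood 9 to 1 bases before the start of Psmb6 and 47 to 39 bases before that of Psmb5, and it was not matched in the windows of Psmb8 or Psmb9. Over the 27 windows of constitutive subunits it was present in 4, or 14.8%, against 10.2% of all 32851 promoter windows of this length. CCAAT was present in 37.0% of the constitutive windows and 33.8% of all windows, GGGCGG in 51.9% and 32.7%, and TATAAA in 11.1% and 12.4%. Promoters were matched for 42 of the 50 genes, some with more than 1 start. A match is a description of letters, not a binding site.

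Levels of the beta ring fell into an abundant and a scarce set. Psmb6, which carries the caspase-like site, stood at 195.0 and 199 in control libraries 1 and 2 and at 178, 188 and 189 in PNMC libraries 1, 2 and 3, a mean of 189.6 that exceeded the means of 97.4% of the genes tested. The structural subunits Psmb2 and Psmb3 followed, with means of 118 and 117 over the 5 libraries. Psmb7, which carries the trypsin-like site, was at 21.2 and 24.2 in the controls and 24.6, 28.0 and 20.7 after PNMC, and the structural Psmb1 had a mean of 23.4. Psmb5, which carries the chymotrypsin-like site, was at 19.9 and 7.87 in the controls and 10.6, 9.68 and 5.32 after PNMC, so that control library 1 stood apart and the other 4 overlapped. The structural subunit Psmb4 was the lowest of the ring, with a mean of 8.34 and a range from 6.86 to 11.8. The highest mean of the constitutive beta ring was thus 22.7 times the lowest, although each subunit occurs in equal number in the particle.

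Alpha ring levels were closer together, with means that spanned 6.22-fold. Psma7 led with a mean of 78.6 and ran from 55.8 in PNMC library 3 to 100.1 in PNMC library 1. Psma4 had a mean of 46.1, Psma3 of 40.9, Psma1 of 38.9, Psma2 of 22.5 and Psma6 of 20.3. Psma5 was the lowest, at 7.24 and 18.0 in the controls and 9.43, 13.6 and 14.8 after PNMC, so the controls lay on either side of all PNMC libraries. The plot of levels by class shows the order within each ring.

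**Figure D1:**
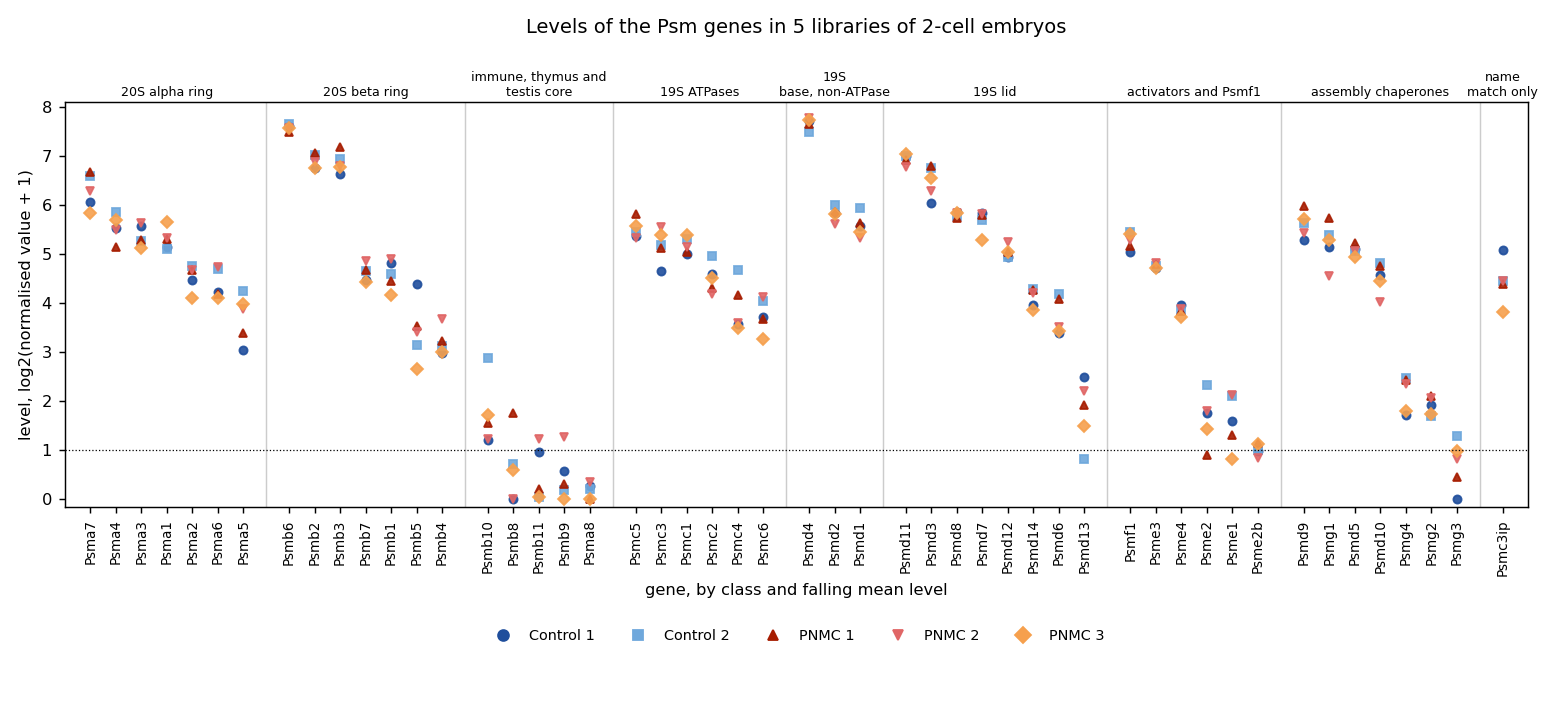
Level of each of the 50 Psm genes on the log2(normalised value + 1) scale (vertical axis), by class and falling mean (horizontal axis), with a point for each of 2 control and 3 PNMC libraries; the dotted line marks a value of 1. Psmd4 and Psmb6 have the highest means, 203 and 189.6, and 5 genes, 4 of them restricted core subunits, fall short of a value of 1 in all or all but 1 of the libraries.

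The immune, thymus and testis subunits of the core were near the floor of the table. Psmb8, the inducible counterpart of Psmb5, was listed at 0 in control library 1 and PNMC library 2, and at 0.659 in control library 2, 2.39 in PNMC library 1 and 0.512 in PNMC library 3. Psmb9, the counterpart of Psmb6, was at 0.502 and 0.146 in the controls and at 0.238, 1.399 and 0 after PNMC. Psmb10, the counterpart of Psmb7, was the only one of the 5 that entered the tests, at 1.31 and 6.34 in the controls and 1.96, 1.34 and 2.31 after PNMC, with control library 2 above the rest. The thymus subunit Psmb11 stayed between 0.0271 and 1.35, and the testis subunit Psma8 was listed at 0 in PNMC libraries 1 and 3 and did not exceed 0.283.

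Summed over the 3 inducible genes, the level was 1.81 and 7.14 in the controls and 4.59, 2.74 and 2.82 after PNMC, against 236 and 231 in the controls and 213, 225 and 214 after PNMC for the 3 constitutive proteolytic genes. The inducible sum was therefore 0.768% to 3.09% of the constitutive sum, most of which was Psmb6, and both extremes were control libraries. The single pairs differed. Over the 5 libraries Psmb9 was 0% to 0.745% of Psmb6 and Psmb8 was 0% to 22.6% of Psmb5. Psmb10 was 4.79% to 26.2% of Psmb7. Markers of immune and blood cells, 15 genes of which 4 were at 0 in all libraries (Tyrobp and Fcer1g among them), summed to between 36.8 and 39.7 in controls and between 24.7 and 34.8 after PNMC. Among them Cd74, like Psmb10, was highest in control library 2, at 12.8 against 3.21 to 5.38 elsewhere. Ptprc exceeded 0 only there, at 0.0412. H2-Aa and Lyz2 were instead highest in control library 1, at 8.72 and 0.946, and Cd52 in PNMC library 1, at 3.19. Whether these markers bear on the Psmb10 value was not tested. In bulk libraries a few cells with a high level and many cells with a low level cannot be told apart. The plot of paired subunits sets these forms side by side.

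**Figure D2:**
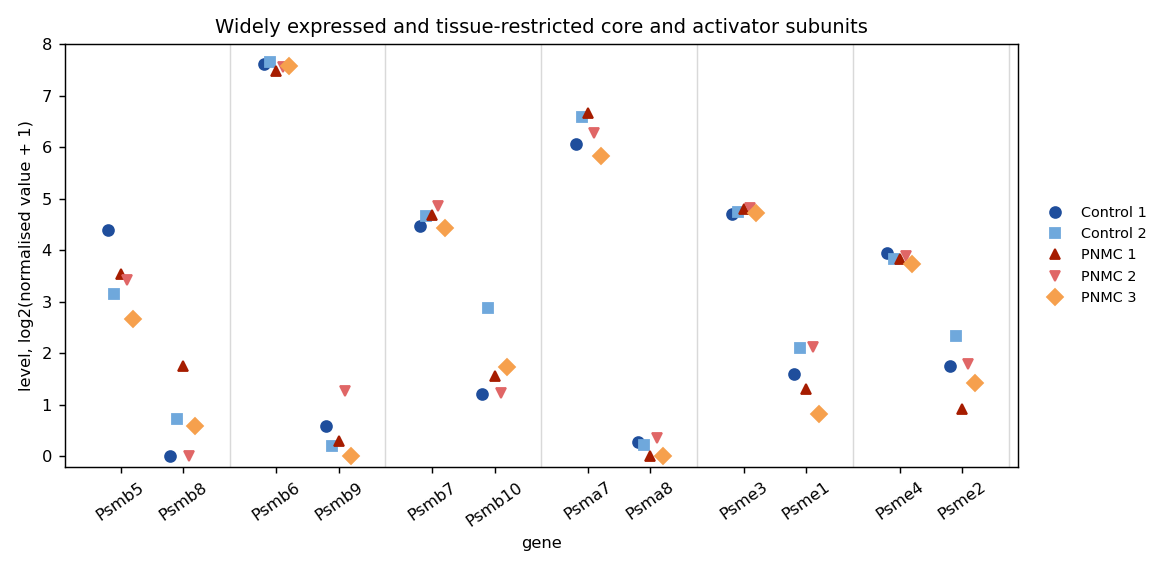
Levels on the log2(normalised value + 1) scale (vertical axis) of core subunits and activators (horizontal axis), with a point for each library. Shown are constitutive and inducible proteolytic subunits, the alpha subunits Psma7 and Psma8, and the activators Psme3 and Psme4 beside Psme1 and Psme2. In all 5 libraries each inducible core subunit lies below its constitutive counterpart, for example Psmb9 at 0 to 1.399 and Psmb6 at 178 to 199. Psma8 likewise lies below Psma7, and Psme1 and Psme2 lie below Psme3 and Psme4.

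In the regulatory particle, the ubiquitin receptor Psmd4 had the highest level of all 50 genes. It stood at 209 and 178 in the controls and at 200.1, 217 and 210.2 after PNMC, above 97.6% of the genes tested. The scaffold subunits Psmd2 and Psmd1, to which ubiquitin receptors and shuttles dock, had means of 55.7 and 47.5. Among the lid subunits, Psmd11 led with values of 126 in both controls and 119, 108 and 130.3 after PNMC, followed by Psmd3 with a mean of 90.1. Psmd8, Psmd7 and Psmd12 had means of 55.0, 50.8 and 32.0. Psmd14, the metalloprotease that cuts ubiquitin chains from substrates, had a mean of 16.5 and a range from 13.6 to 18.5, and Psmd6 a mean of 12.5. Psmd13 was far below the other lid genes, at 4.61 and 0.776 in the controls and 2.81, 3.62 and 1.80 after PNMC, so that the 2 controls were the extremes.

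The ATPases had means that spanned 3.48-fold, the narrowest span of the classes with at least 3 members. Psmc5 had a mean of 44.7, Psmc3 of 36.0, Psmc1 of 35.3, Psmc2 of 22.2, Psmc4 of 14.7 and Psmc6 of 12.9. Psmc4 was at 24.5 in control library 2 and between 10.2 and 17.0 in the other libraries. The lid, by contrast, spanned 44.8-fold from Psmd13 to Psmd11, and the 31 constitutive subunits together spanned 74.6-fold from Psmd13 to Psmd4. The sum over the 31 genes was 1528 and 1694 in the controls and 1660.4, 1595 and 1541 after PNMC, with the controls at the extremes. As a share of the total signal of a library it ran from 0.339% in PNMC library 3 to 0.379% in control library 2.

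Among the activators, the nuclear activator Psme3 and the proteasome cap Psme4, which is known for the degradation of acetylated histones, prevailed over the interferon-inducible Psme1 and Psme2. Psme3 was at 25.2 and 25.9 in the controls and 26.8, 27.1 and 25.2 after PNMC, and its highest value was 1.07 times its lowest, the narrowest range of the 50 genes. Psme4 was at 14.5 and 13.3 in the controls and 13.3, 13.7 and 12.2 after PNMC. Psme1 ranged from 0.774 to 3.35 and Psme2 from 0.880 to 4.03, or 3.07% to 12.8% and 3.28% to 15.6% of Psme3. Psme2b, a near copy of Psme2, had a mean of 1.04, and Psmf1, the regulator known as PI31, had a mean of 37.7.

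Partners within the assembly chaperones had unlike levels. Psmg1 and Psmg2 encode the partners of a dimer that builds the alpha ring, and Psmg1 was at 34.1 and 41.0 in the controls and 52.0, 22.5 and 37.8 after PNMC, where Psmg2 had a mean of 2.78 and did not exceed 3.33. Psmg4 and Psmg3 encode another such dimer and had means of 3.55 and 0.711, with Psmg3 listed at 0 in control library 1. The chaperones of the ATPase ring, Psmd9, Psmd5 and Psmd10, had means of 48.3, 32.9 and 22.4. Psmc3ip, whose product works in meiosis, was at 33.0 and 20.7 in the controls and 19.9, 21.0 and 13.1 after PNMC.

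The levels of different genes can be compared only if the unit is scaled to gene length. Across 12530 tested genes found in GENCODE M21, level and transcript length had a Spearman rho of -0.04, and across the 31 constitutive subunits it was 0.01. These are descriptions across genes of the same libraries, which share depth, and genes are not replicates. Sequence shared with other genes can also bear on single levels, since reads from it can come from either copy. How such reads were counted is not stated. Of the 50 longest coding transcripts, 23 shared no stretch of 50 bases with another gene's transcript on either strand, and 16 shared more than 10% of such stretches. The share was over 50% for 5 genes, namely Psme2b (69.3%) and Psme2 (59.3%), which resemble each other, and Psmb5 (57.1%), Psmb3 (55.8%) and Psma5 (55.4%), whose closest partners are pseudogenes. Psmb5 and Psma5 were among the lowest of their rings, Psmb3 among the highest, and Psmd13, Psmb4, Psmg2 and Psmg3 had shares of 15.8%, 0, 0 and 22.7%. The libraries keep no strand information, so reads from a stretch where exons of opposite strands overlap cannot be told apart. The longest such stretches were 1849 bases of Psmd9 with Gm26745, 498 of Psmb8 with Gm20496, 405 of Psmb7 with Nek6, 385 of Psmc3ip with Mlx, 342 of Psmd13 with Sirt3, 252 of Psmd1 with Htr2b, 215 of Psmc3 with Slc39a13 and 212 of Psmb9 with Tap1. Among these partners Mlx and Sirt3 had means of 6.79 and 7.15, the latter above the Psmd13 mean of 2.72. The means of Slc39a13, Nek6, Tap1, Htr2b and Gm20496 were 0.350, 0.252, 0.0904, 0.0607 and 0. No level was available for Gm26745. The part of shared sequence in the levels was not tested.

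The comparison of PNMC with the solvent asked which of these transcripts differed with exposure. Of the 50 genes, 45 reached a value of 1 in 2 or more libraries and were tested. Psma8, Psmb8, Psmb9, Psmb11 and Psmg3 were not. None of the 45 passed an adjusted p of 0.05 (limma, two-sided, adjusted over 12734 genes), where 0% of all genes tested passed, and the lowest adjusted p of a member was 0.986. Without adjustment, 0 members had a limma p under 0.05, against 4.99% of all genes tested. The difference was negative in 26 members and positive in 19, or 57.8% negative against 56.9% of all genes tested. After scaling each library to the same median this split became 42.2% against 46.1%, so no direction is given for the genes as a group. The median log2(value + 1) change was -0.06 over the 45 members and -0.05 over all genes tested.

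By class, the median log2 change was -0.07 in the alpha ring, 0.01 in the beta ring, -0.08 in the ATPases, -0.15 in the 3 other base subunits, -0.02 in the lid, -0.02 in the activators and 0.05 in the 6 tested assembly chaperones. The 3 PNMC values lay entirely on one side of both controls in 4 members, or 8.89% of those tested, against 19.9% of all genes tested. Psmc2 and Psmb6 were the 2 members below, where 11.9% of all genes lay below, and Psma1 and Psmd12 the 2 above, where 7.97% did. The count of 4 was 7 after median scaling, or 15.6% against 20.7% of all genes. With 1 library left out it lay between 10 and 23, or 22.7% to 51.1% of the members tested against 31.7% to 52.3% of all genes. In each of these settings the members' share was below that of all genes, though some shares lay close. Without PNMC library 2 they were 31.1% and 34.6%. The settings reuse the same 5 libraries, so the repeats are not independent.

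The ATPases Psmc2 and Psmc3 had differences of opposite sign. Psmc2 was at 23.1 and 30.2 in the controls and at 18.8, 17.1 and 21.9 after PNMC. Its means were 26.7 ± 5.03 (SD, n = 2) and 19.3 ± 2.44 (SD, n = 3), which gave a difference of -0.44 on the log2 scale with an SE of 0.217 (limma adjusted p = 0.986). The groups did not overlap, but the lower control and the highest PNMC library differed by little beside the spread within groups. Psmc3 was at 24.3 and 35.3 in the controls and at 33.9, 45.6 and 40.8 after PNMC, and the difference was 0.43 on the log2 scale with an SE of 0.212 (limma adjusted p = 0.986). Control library 1 lay below the other 4 Psmc3 values, which overlapped between groups. Without control library 2 the Psmc3 change was 0.69 and without control library 1 it was 0.17.

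Psma1 was at 34.4 and 33.4 in the controls and at 38.7, 38.9 and 49.2 after PNMC, a difference of 0.30 on the log2 scale with an SE of 0.185 (limma adjusted p = 0.993), with all PNMC libraries above both controls. Psmd12 was at 29.5 and 29.6 in the controls and 31.8, 37.0 and 32.1 after PNMC, again without overlap. Psmb6 had means of 197 ± 2.74 (SD, n = 2) and 185 ± 6.11 (SD, n = 3), a log2 change of -0.09 with a 95% interval from -0.36 to 0.17 (limma adjusted p = 0.993). The interval of Psmb7 ran from -0.36 to 0.54 around a change of 0.09, and that of Psmb5 from -1.35 to 0.23 around -0.56 (limma adjusted p = 0.993 for both). Without control library 1 the Psmb5 change was 0.05, so its sign rested on that library.

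The largest negative change among the tested members was that of Psme2, at 2.37 and 4.03 in the controls and 0.880, 2.47 and 1.70 after PNMC, or -0.66 on the log2 scale with an SE of 0.394 (limma adjusted p = 0.993), and the groups overlapped. Psmc3ip had the smallest p of the 45 members, with a change of -0.54 and an SE of 0.261 (limma adjusted p = 0.986), and without control library 1 the change was -0.22. Psmb10 and Psmc4 had changes of -0.54 (SE 0.460) and -0.37 (SE 0.323), with a limma adjusted p of 0.993 for both. They turned to 0.30 and 0.18 without control library 2, in which both genes were highest. Of the remaining members with a small p, Psmd1, Psma4 and Psmd10 had changes of -0.30, -0.25 and -0.28, with SEs of 0.185, 0.201 and 0.240. Psmd9 had a change of 0.25 with an SE of 0.201, and all 4 had overlapping groups and a limma adjusted p of 0.993.

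Intervals at 95% for the log2(value + 1) change stayed inside -1 to 1 in 38 of 45 members, or 84.4%, against 61.4% of all genes tested. These shares are not matched for level. Only 7 of the 45 members had a mean under 5, against 5340 of the 12734 genes tested, and the spread within groups was larger at low levels. The part of level in the difference was not tested. The half-width of the interval ran from 0.26 for Psmb6 to 1.00 for Psmd13, with a median of 0.47. The plot of changes by gene shows the intervals.

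**Figure D3:**
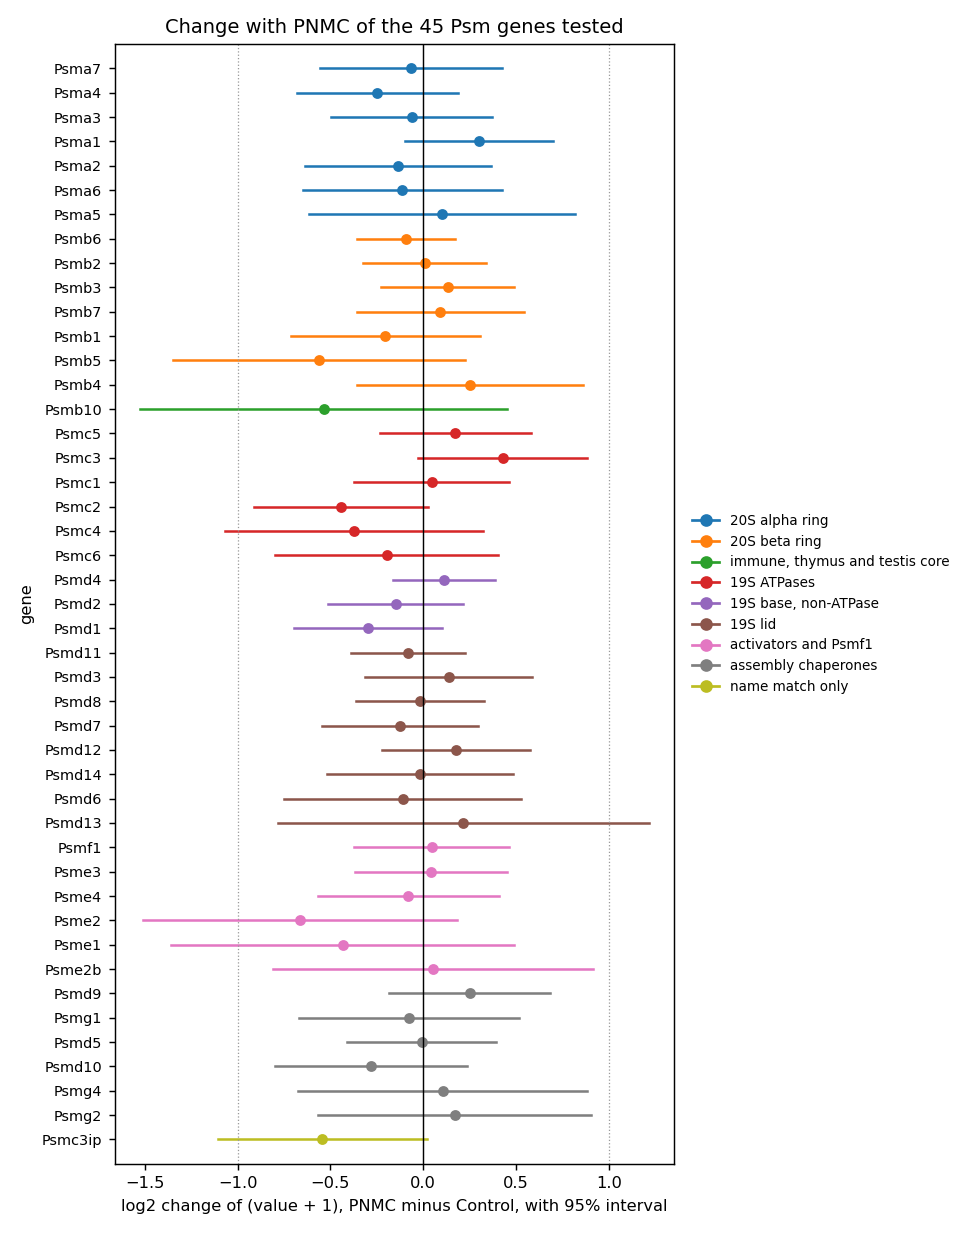
Log2 change of (value + 1), PNMC minus control, for the 45 tested genes (vertical axis, coloured by class), with the limma estimate as a point and its 95% interval as a line; dotted lines mark changes of -1 and 1. All 45 intervals include 0, and the widest belongs to Psmd13.

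The spread between libraries of a group was set beside that of all genes tested in the same broad range of level, members included. It was taken as the pooled SD of log2(value + 1) within groups. Among genes with a mean from 20 to 100, its median was 0.249 over 25 members and 0.196 over 2794 tested genes. From 5 to 20 it was 0.405 over 8 members and 0.281 over 3850 genes, under 5 it was 0.433 over 7 and 0.408 over 5340, and from 100 upwards it was 0.110 over 5 and 0.135 over 750. These are descriptions of 5 libraries.

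Values also varied between the libraries of a group. Control library 2 held the highest value in 15 of 45 members, or 33.3%, against 24.7% of all genes tested. The lowest value was in PNMC library 3 for 15 members and in control library 1 for 14, or 33.3% and 31.1%, against 21.9% and 21.1% of all genes tested. The mean deviation of the 31 constitutive subunits from each gene's average was -0.06 and 0.10 on the log2(value + 1) scale in control libraries 1 and 2, and 0.04, 0.05 and -0.13 in the PNMC libraries. For the ATPases the 2 controls were the extremes, at -0.19 and 0.26. For the beta ring PNMC library 3 stood lowest, at -0.26, and for the assembly chaperones PNMC library 1 stood highest, at 0.29. In none of the 7 classes with at least 3 tested members did the 3 PNMC libraries lie together on one side of both controls. Over all 12734 genes tested they did, at -0.02, -0.02 and -0.04 against 0.00266 and 0.07 in the controls.

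**Figure D4:**
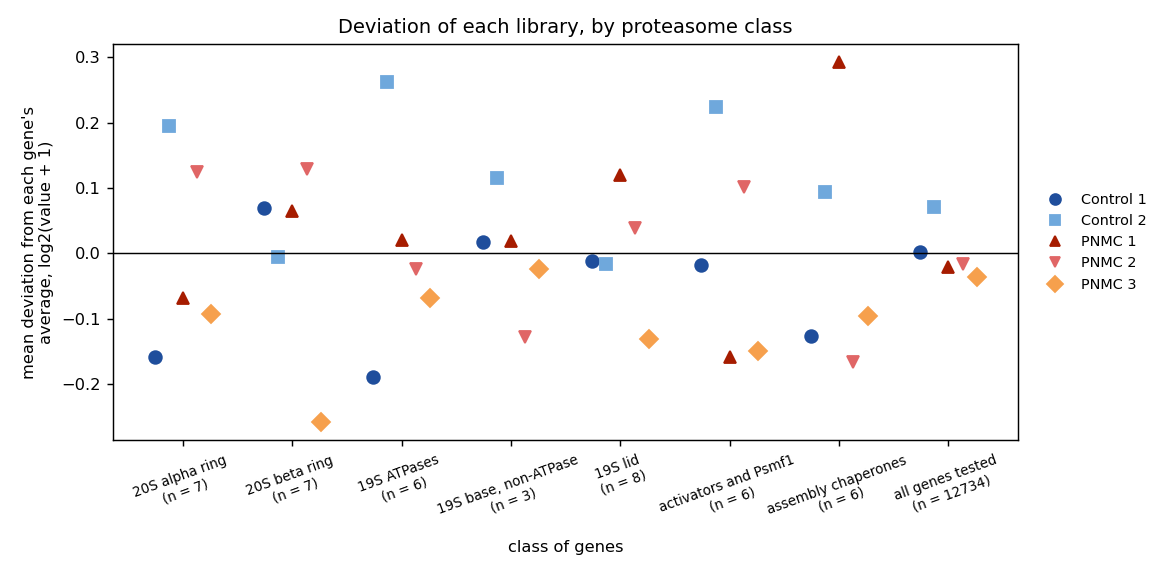
Mean deviation of each library from the average of each gene on the log2(value + 1) scale (vertical axis), for 7 classes of proteasome genes and for all 12734 genes tested (horizontal axis), with a point for each library. Control 1 and control 2 mark the extremes of the ATPases at -0.19 and 0.26, and in every proteasome class the groups overlap, while over all genes tested the PNMC libraries lie below both controls.

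Among other genes of the pathway, 42 were tested on 4 lists and none passed the adjusted threshold. Without adjustment, 2 had a limma p under 0.05, or 4.76%, against 4.99% of all genes tested, and 7 had no overlap between groups, or 16.7%, against 19.9%. The first list held 11 proteasome subunits, partners and chaperones that the symbol rule does not match, of which 6 had positive and 5 negative changes. E330034G19Rik, listed in RefSeq with the synonym Zpac and known as a proteasome assembly chaperone of the zygote, was by far the most abundant. It was at 3089 and 3127 in the controls and at 3640, 3653 and 4251 after PNMC, and in each library exceeded the summed level of the 31 constitutive subunits. All 3 PNMC libraries lay above both controls, and the difference was 0.30 on the log2 scale with an SE of 0.0848 (limma adjusted p = 0.868), which did not pass the test. E330034G19Rik and Faf2 were the 2 genes under the unadjusted threshold. Neither stayed under it in every setting: the unadjusted limma p of E330034G19Rik was 0.182 without trend and robust variances, and that of Faf2 was 0.0563 without control library 1 and 0.0836 without control library 2.

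The other genes of that list lay far below E330034G19Rik, with means that exceeded from 47.9% (Sem1) to 90.5% (Adrm1) of the genes tested. The ubiquitin receptor Adrm1 had a control mean of 66.7 ± 0.244 (SD, n = 2) and a PNMC mean of 67.7 ± 6.28 (SD, n = 3). Akirin2, which guides proteasomes into the nucleus, averaged 50.9 ± 10.7 and 54.7 ± 8.71. The maturation factor Pomp, which acts with the Psmg chaperones, averaged 14.6 ± 2.50 and 13.9 ± 0.588, and the small lid subunit Sem1 averaged 6.60 ± 0.491 and 6.45 ± 1.93. The proteasome deubiquitinases Uchl5 and Usp14 averaged 10.97 ± 2.67 and 6.74 ± 0.164 in controls and 10.1 ± 0.560 and 7.58 ± 0.530 after PNMC. The means over the 5 libraries of Txnl1, Ecpas, Ube3c and Ublcp1 were 25.9, 24.3, 7.90 and 7.43.

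Factors known to control proteasome genes or activity had a median log2 change of 0.05 over 11 genes, with 7 positive and 4 negative. Their 2 most abundant members were the CCAAT-binding subunits Nfyc, at 105 ± 1.43 (SD, n = 2) and 115 ± 2.01 (SD, n = 3), and Nfya, at 57.3 ± 0.996 and 60.0 ± 8.99. Substrate shuttles and the p97 unfolding system had 10 negative and 4 positive changes, with a median of -0.21. Over all genes tested 56.9% of changes were negative, with a median of -0.05, and 46.1% after median scaling. No direction is therefore given for any of these lists. Ubxn1 averaged 64.5 ± 4.47 in controls and 54.9 ± 8.87 after PNMC, and Ubxn4 averaged 35.6 ± 0.832 and 29.0 ± 1.83. Faf2, a membrane-bound p97 adaptor named after its values were seen, was at 5.72 and 6.18 in the controls and at 2.99, 2.49 and 3.32 after PNMC, or -0.83 on the log2 scale with an SE of 0.312 (limma adjusted p = 0.967). The ubiquitin genes and activating enzymes had 2 positive and 4 negative changes with a median of -0.09, and the polyubiquitin gene Ubb averaged 1231 ± 7.31 in controls and 1113 ± 110.03 after PNMC.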

How the data were processed

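Smart-seq2 libraries were made from TRIzol RNA of 2-cell embryos, per the labels' protocols. Per the submitters' processing notes, the tools were DESeq2 1.16.1, HTSeq, HISAT2 2.0.5 and Trimmomatic, with the build GRCm39. Neither the annotation nor the tool behind the values is stated. What the authors deposited is a table of normalised signal, fractional and never negative, whose low values show no whole-read step. Columns were assigned to samples through their titles.

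A gene was kept if 2 or more of the 5 libraries reached a value of 1 (12734 of 32285). Values were transformed to log2(value + 1) and compared, 3 PNMC against 2 control libraries, by limma 3.58.1 (R 4.3.3) with trend and robust variances, adjusted by Benjamini-Hochberg over all genes tested; fold changes of low genes are understated. The design allowed for counts or normalised values, and the second applied. The procedure was run on simulated data with 200 changed genes. Its recovery of changes as small as those reported here is not given. Members, classes and lists were chosen with earlier results of these data known. Full limma statistics are given for the 12 members with the smallest p and for Psmb5, Psmb6 and Psmb7; genes outside the rule are said to be so or are among the fixed lists. A gene of the fixed pathway lists that these choices would name is not reported here. E330034G19Rik was on a fixed list, and its statistics were added after its values were seen.

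The settings varied in turn were the pseudocount (0.1), the filter (none, or a minimum of 10), the scaling (median or quantile), a replicate block, limma's trend and robust variances, and each library left out. GENCODE M21 (GRCm38) served for transcript length, shared sequence and exon overlap, and RefSeq GRCm38.p6 for promoters, matched by symbol; since the builds differ, the promoter positions are those of GRCm38.p6. Other-cell markers were checked in 5 lists: besides those in the text, cumulus markers summed to 35.4 to 47.7, sperm markers to 130.2 to 152.4 (mostly Odf2, mean 132), oviduct markers to 61.3 to 112.2 (mostly Epcam, mean 55.9) and oocyte and 2-cell markers to 8491 to 9266. Of the 8 oviduct markers, 5 had means under 1.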

Additional observations from a re-analysis of the deposited data

How the results depend on the processing

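No member passed the adjusted threshold under any of the 12 alternatives run. At an unadjusted limma p under 0.05 the count of 0 members became 1 (Psmc3) after median scaling and lay between 1 and 4 with 1 library left out: Psmc2, Psmb10, Psmc4 and Psmd1 without control library 1, Psmc3ip, Psmd3, Psmc3 and Psmb5 without control library 2, Psmc3 without PNMC library 1, Psmc3ip without PNMC library 2 and Psmc2 without PNMC library 3. The share of all genes tested under this threshold was 5.19% after median scaling and 4.11% to 6.00% with 1 library left out. Members without overlap between groups numbered 7 after median scaling, or 15.6% against 20.7% of all genes, and 10 to 23 with 1 library left out, or 22.7% to 51.1% against 31.7% to 52.3% of all genes. The members' median log2 change lay between -0.11 and 0.0545 with 1 library left out, and was 0.02 after median scaling and 0.01 under the replicate block. With 1 library left out the log2 change lay between -1.37 and 0.30 for Psmb10, -1.18 and 0.0547 for Psmb5, -0.93 and 0.18 for Psmc4 and -0.00659 and 0.20 for Psmb7. The Psmb7 change was -0.00659 without PNMC library 2, which held its highest value, at 28.0 against 20.7 to 24.6 elsewhere. Why Psmb7 was higher in that library was not tested. Where 1 control is left out, the lone control is assumed to vary like the PNMC libraries. Replicate numbers shared between the groups gave no sign of pairing (correlation of deviations -0.06 for number 1 and -0.04 for number 2). With 2 controls, whose deviations mirror each other, these correlations cannot decide whether libraries were paired. The replicate block left 0 members past either threshold. Number 3 occurs only among the PNMC libraries. The block therefore takes PNMC library 3 out of the comparison, and its log2 changes equal those with that library left out. The log2 change of E330034G19Rik lay between 0.23 and 0.39 over all alternatives, with adjusted p from 0.669 to 1.00, and that of Faf2, which the minimum of 10 left untested, between -1.005 and -0.74, with adjusted p from 0.649 to 1.00. Depth is unknown, and the number of libraries limits precision.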
